A study of Homo sapiens with 12 samples.

Results

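Transcripts of 10 genes that bind or receive insulin-like growth factors (IGFs) and insulin were examined across the 4 lines of the MCF10 human breast epithelial series. The genes are 6 IGF-binding protein genes (IGFBP2, IGFBP3, IGFBP4, IGFBP5, IGFBP6 and IGFBP7), 3 receptor genes (IGF1R, INSR and IGF2R) and the receptor substrate gene IRS1. They were chosen by gene symbol from a table of 59427 symbols, with earlier results of these data known. Shares of members set beside those of all genes are therefore descriptive. Of the 10 genes, 9 reached at least 1 TPM, a share of the library's transcripts corrected for transcript length, in a line. IGFBP5 did not. MCF10A is an immortalised, non-tumorigenic line, and MCF10AT1 was derived from it by transformation with HRAS G12V. MCF10DCIS stands in the study for ductal carcinoma in situ and MCF10CA1a for metastatic cancer, and both lines are known to descend from HRAS-transformed MCF10A cells. All lines were kept in DMEM:F12 medium that held horse serum, human insulin, epidermal growth factor, cholera toxin, hydrocortisone, antibiotics and glutamine, so ligand for the insulin-type receptors was supplied to every line. Each line is represented by 3 stranded total-RNA libraries, and the values used here are the authors' mean TPM per line. They carry no error, so a difference between lines could not be set against the spread between libraries, and no test was possible. The labels do not say whether the libraries came from separate cultures.

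IGF1, IGF2 and insulin are secreted hormones that signal through the tyrosine kinase receptors encoded by IGF1R and INSR, and the docking proteins IRS1 and IRS2 carry that signal to phosphoinositide 3-kinase (PI3K), AKT and MTOR. IGF2R encodes a receptor without kinase activity that takes IGF2 up for degradation and carries lysosomal enzymes. The IGF-binding proteins are secreted, hold IGFs in the extracellular space and can either withhold them from the receptor or present them to it. IGFBP7 is a relative that binds IGFs weakly and is known as a matrix-associated secreted protein. In breast epithelium this axis is known for its part in growth, survival and the response to hormones.

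Between 11444 and 12045 genes reached 1 TPM in a line, and the depth of the libraries is unknown because TPM keeps no read counts. Differences are given as log2(TPM + 1) of the line named first minus that of the other, over the 13108 genes with at least 1 TPM in at least 1 line, and a gene is counted as higher or lower from a difference of 1 upward, here called the rule of size. Structural and small non-coding RNAs, ribosomal protein genes and mitochondrially encoded genes together held 65.6% of the TPM in MCF10A and 73.4% in MCF10DCIS. The median difference of all tested genes from MCF10A was -0.07 for MCF10AT1, -0.38 for MCF10DCIS and -0.07 for MCF10CA1a. It was 0.04, -0.09 and 0.05 when TPM was rescaled without those RNA classes, called rescaled TPM below. HRAS was at 50.8 TPM in MCF10A, at 126 in MCF10AT1, at 276 in MCF10DCIS and at 312 in MCF10CA1a. All 6 epithelial markers examined were at 1 TPM or more in MCF10A and 5 of 6 in each derived line, the exception being KRT19. Their levels differed, with sums of 2717, 1572, 1834 and 1964 TPM in MCF10A, MCF10AT1, MCF10DCIS and MCF10CA1a. CDH1 was at 149, 21.3, 42.3 and 51.9 TPM in the same order, whereas EPCAM and KRT18 were highest in MCF10CA1a, at 148 and 977 TPM.

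The lines differed in which binding-protein gene supplied most of the IGFBP transcripts. TPM is a value per transcript length, so levels of different genes may be added and set side by side. The 6 genes summed to 108 TPM in MCF10A, to 147 in MCF10AT1, to 31.2 in MCF10DCIS and to 86.8 in MCF10CA1a. IGFBP3 made up 55.0% of that sum in MCF10A and 55.4% in MCF10CA1a, with IGFBP6 at 43.3% and 36.1%. MCF10AT1 and MCF10DCIS each had another composition. In MCF10AT1 the sum was 47.5% IGFBP6, 37.6% IGFBP7 and 8.24% IGFBP3, and in MCF10DCIS it was 49.9% IGFBP2, 28.2% IGFBP6 and 11.6% IGFBP3. MCF10DCIS was lowest in the sum on both scales: the sum of MCF10A was 3.46 times that of MCF10DCIS with deposited TPM and 2.68 times with rescaled TPM.

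**Figure D1:**
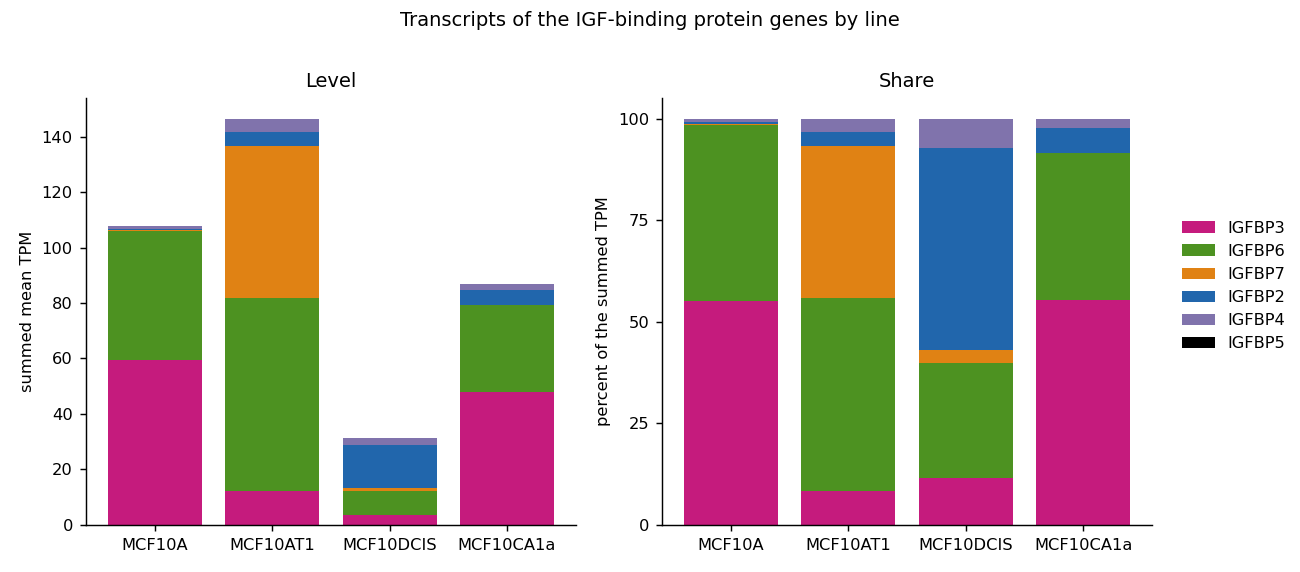
Stacked bars show the transcripts of the 6 IGF-binding protein genes in each line, at left as the sum of the authors' mean TPM and at right as the percent of that sum. IGFBP3 and IGFBP6 together held 98.3% in MCF10A and 91.5% in MCF10CA1a, against 55.7% in MCF10AT1 and 39.7% in MCF10DCIS.

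IGFBP7 was high in a single line. It was at 0.448 TPM in MCF10A, at 55.1 in MCF10AT1, at 1.01 in MCF10DCIS and at 0.0317 in MCF10CA1a. MCF10AT1 stood far above the other lines, which with deposited TPM lay within the rule of size of one another in steps of 0.48 and 0.49. The difference of MCF10AT1 from MCF10A was 5.28, a ratio of 123 and the 4th highest of the 13108 tested genes. Against MCF10AT1, the differences of MCF10DCIS and MCF10CA1a were -4.80 and -5.77, each the 7th lowest in its comparison. The order MCF10AT1, MCF10DCIS, MCF10A, MCF10CA1a was kept under the 3 other scalings tried, but with rescaled TPM the steps among the low lines also reached the rule of size, at 1.06 for MCF10DCIS and -1.06 for MCF10CA1a against MCF10A. Between MCF10CA1a and MCF10DCIS the difference was -0.97 with deposited TPM. It was past the rule under the 3 other scalings, at -1.14 (quantile normalization), -1.13 (median-of-ratios scaling) and -2.13 (rescaled TPM). The low values in the other lines rest on an unknown number of reads, so the ratio is imprecise.

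Stromal and vascular cells express IGFBP7 strongly, and their markers were read beside it. In bulk RNA, a change in the number of such cells and a change in RNA per cell cannot be told apart. Of 8 fibroblast markers, 2 reached 1 TPM in MCF10AT1, COL1A1 at 3.22 TPM and DCN at 134 TPM. The 8 markers summed to 0.983 TPM in MCF10A, to 138 in MCF10AT1, to 3.08 in MCF10DCIS and to 2.76 in MCF10CA1a. The other 6 (COL1A2, COL3A1, LUM, PDGFRA, PDGFRB and THY1) lay between 0.0183 and 0.154 TPM in MCF10AT1, and none of the 8 was listed at 0 there. All 8 had a higher value in MCF10AT1 than in MCF10A, among them PDGFRA at 0.0310 against 0.0033 TPM and COL1A2 at 0.0408 against 0.0404 TPM. The values of the 6 low markers rest on an unknown number of reads, so their direction is uncertain. Only DCN and COL1A1 were at 1 TPM or more. The 6 endothelial markers summed to 0.949 TPM in MCF10AT1 and 4.76 TPM in MCF10A, with CLDN5 listed at 0 in MCF10AT1. The 5 smooth muscle and myoepithelial markers summed to 17.5, 22.5, 8.30 and 8.41 TPM in MCF10A, MCF10AT1, MCF10DCIS and MCF10CA1a. Of that list, TAGLN was highest in MCF10AT1, at 12.3 TPM against 2.10, 0.581 and 0.485 TPM in the other lines. ACTA2 was highest in MCF10A, at 15.0 TPM against 9.91, 7.59 and 7.47 TPM in MCF10AT1, MCF10DCIS and MCF10CA1a. OXTR and MYH11 were lower in MCF10AT1 than in MCF10A. CNN1 was at 0 TPM in MCF10A and at 0.0136 in MCF10AT1. The 5 genes of the mesenchymal state (VIM, FN1, CDH2, ZEB1 and SPARC) summed to 10.4, 834, 309 and 111 TPM in MCF10A, MCF10AT1, MCF10DCIS and MCF10CA1a. These genes did not share 1 pattern. In MCF10DCIS, VIM was at 213 and SPARC at 92.9 TPM, while FN1, CDH2 and ZEB1 were lower than in MCF10A. SPARC was at 1.22 TPM in MCF10AT1, where the other genes of this list were highest. The part of all these marker genes in the IGFBP7 difference was not tested. The genes with a pattern over the 4 lines most like that of IGFBP7 were LTBP1, FN1 and DCN, at root mean square differences of 0.73, 0.73 and 0.77 log2 units after each gene's mean was subtracted. FN1 and DCN are also in the marker lists above. The ranking covered 6634 genes with at least 10 TPM in their highest line, each over 4 points.

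IGFBP3, which encodes the main carrier of IGFs in serum, was at 59.3 TPM in MCF10A, at 12.1 in MCF10AT1, at 3.61 in MCF10DCIS and at 48.0 in MCF10CA1a. MCF10A and MCF10CA1a were high and lay 0.30 log2 units apart, inside the rule of size. MCF10AT1 was lower than MCF10CA1a by more than the rule, and MCF10DCIS was lower again by 1.51. From MCF10A, the difference was -2.21 in MCF10AT1 and -3.71 in MCF10DCIS, the latter the 34th lowest of all tested genes. Between MCF10CA1a and MCF10DCIS it was 3.41, the 18th highest. The non-tumorigenic and the metastatic line thus had the highest levels. The genes nearest to it in pattern were F3, SAMD9 and UCA1, with differences of 0.46, 0.52 and 0.55.

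IGFBP6, whose product prefers IGF2 over IGF1, was at 46.7 TPM in MCF10A, at 69.6 in MCF10AT1, at 8.79 in MCF10DCIS and at 31.3 in MCF10CA1a. The 3 higher lines formed steps of 0.56 and 0.56, each under the rule of size, while MCF10DCIS stood 1.72 below MCF10CA1a. Its difference from MCF10A was 0.56 for MCF10AT1, -2.29 for MCF10DCIS and -0.56 for MCF10CA1a. MCF10CA1a was also lower than MCF10AT1 by the rule of size, at -1.13. IGFBP6 and IGFBP3 were thus both lowest in MCF10DCIS, but the ratio of IGFBP6 to IGFBP3 varied among lines. It was 0.788 for MCF10A, 5.76 for MCF10AT1, 2.44 for MCF10DCIS and 0.652 for MCF10CA1a. CCDC80 was the gene most like IGFBP6 in pattern, at a difference of 0.05, followed by MLPH at 0.15 and TIMP2 at 0.32.

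IGFBP2 and IGFBP5 are neighbours on chromosome 2 that point toward each other, with 7668 bases and no annotated gene between them. IGFBP2 runs from 216632828 to 216664436 on the plus strand and IGFBP5 from 216672105 to 216695525 on the minus strand (GRCh38, GENCODE release 29). The 250 bases before a start of each are shown because the pair differed in level, IGFBP2 reaching 15.6 TPM and IGFBP5 no more than 0.0226. The windows are from RefSeq on GRCh38.p14, at chr2:216632578-216632827 on the plus strand for the first of 3 IGFBP2 starts and at chr2:216695550-216695799 on the minus strand for IGFBP5. Capitals mark the letters of a GC box, GGGCGG on either strand.
IGFBP2: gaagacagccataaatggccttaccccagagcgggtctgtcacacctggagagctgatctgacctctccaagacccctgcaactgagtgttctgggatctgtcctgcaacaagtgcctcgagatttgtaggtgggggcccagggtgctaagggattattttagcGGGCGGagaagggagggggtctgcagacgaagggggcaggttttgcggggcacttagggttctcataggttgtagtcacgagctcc
IGFBP5: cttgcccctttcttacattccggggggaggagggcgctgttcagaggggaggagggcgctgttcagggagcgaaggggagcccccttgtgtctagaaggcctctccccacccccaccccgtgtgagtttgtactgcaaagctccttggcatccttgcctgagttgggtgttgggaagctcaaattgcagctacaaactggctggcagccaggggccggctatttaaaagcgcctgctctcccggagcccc
The shown IGFBP2 window has 56.8% G and C and 7 CpG pairs, and the IGFBP5 window 61.2% and 8. The medians over 35116 such windows are 58% and 11. The window of the second IGFBP2 start, 592 bases inside the gene, has 69.2% G and C and 22 CpG pairs. That of the third has 56.4% and 4. The GC-box letters occur 1 time in the shown IGFBP2 window, 0 times in the IGFBP5 window and in 42.6% of all windows. This composition is a description of the sequence and was not tested against the levels.

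IGFBP2, a binding protein often raised in carcinomas, was at 0.355 TPM in MCF10A, at 4.83 in MCF10AT1, at 15.6 in MCF10DCIS and at 5.34 in MCF10CA1a. MCF10A was lowest, MCF10AT1 and MCF10CA1a lay 0.12 apart, and MCF10DCIS was highest by 1.39. The differences from MCF10A were 2.11, 3.61 and 2.23, and all 3 exceeded the rule of size. That of MCF10DCIS was the 17th highest of all tested genes. With deposited and with rescaled TPM, IGFBP2 was the only member counted as higher than MCF10A in each of the 3 derived lines, and these comparisons share the MCF10A values. IGFBP5 was listed at 0 in MCF10A and at 0.01145, 0.0163 and 0.0226 TPM in MCF10AT1, MCF10DCIS and MCF10CA1a, so its differences were not evaluated. SERPINA1, XDH and ITGB4 were most like IGFBP2 in pattern, with differences of 0.40, 0.50 and 0.50.

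IGFBP4, known as an inhibitor of IGF action that is cleaved by the protease PAPPA, was low throughout. It was at 1.03 TPM in MCF10A, at 4.94 in MCF10AT1, at 2.21 in MCF10DCIS and at 2.01 in MCF10CA1a. MCF10AT1 was highest, and no step between neighbours in the order reached the rule of size. From MCF10A the difference was 1.54 for MCF10AT1, 0.66 for MCF10DCIS and 0.57 for MCF10CA1a. With rescaled TPM, MCF10DCIS was past the rule of size as well, at 1.22.

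**Figure D2:**
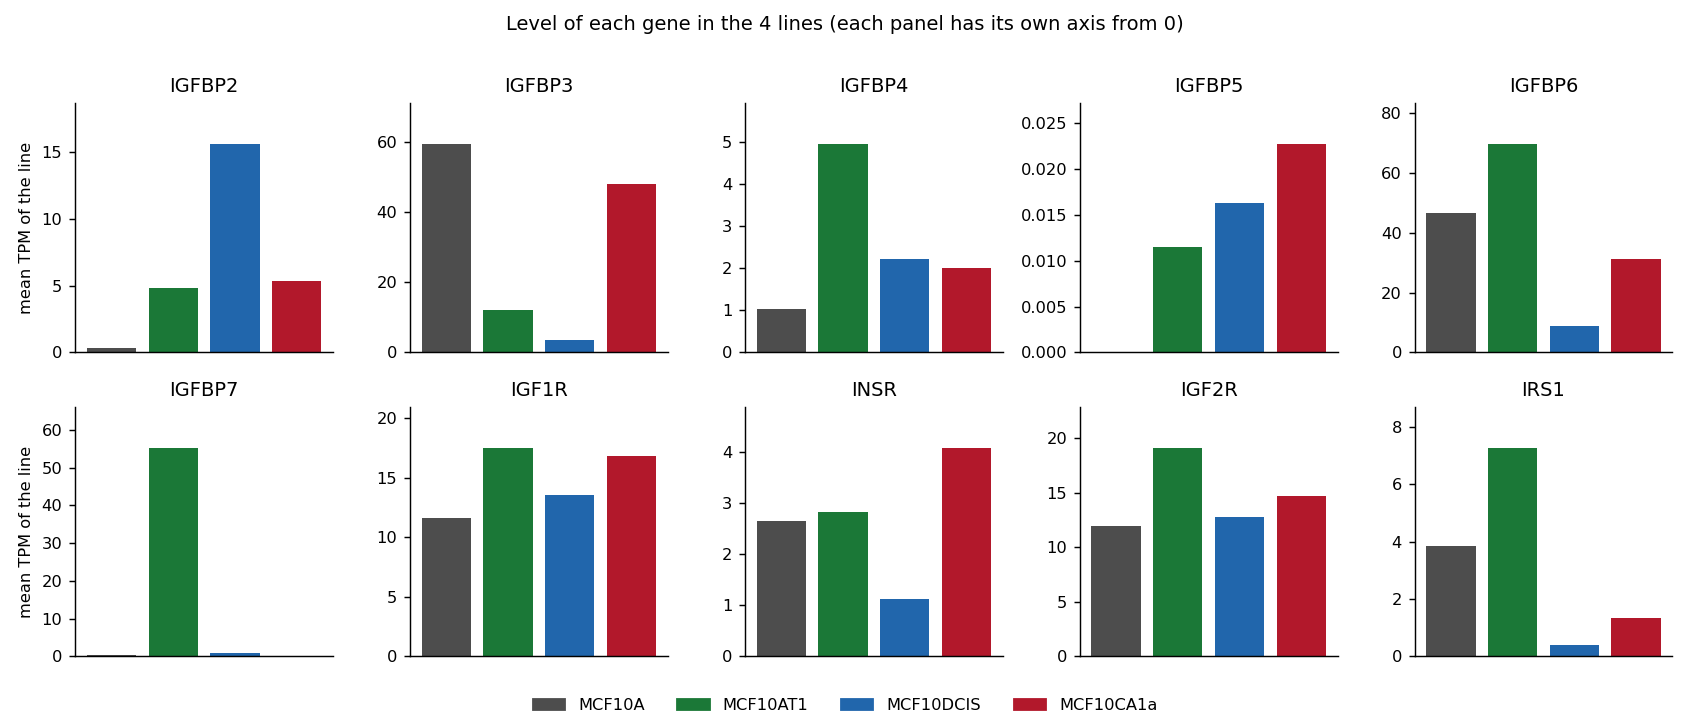
Bars give the authors' mean TPM of each gene in MCF10A, MCF10AT1, MCF10DCIS and MCF10CA1a, with no error bars because only means were available, and each panel has its own linear axis from 0. IGFBP7 is high in MCF10AT1 alone (55.1 TPM), IGFBP2 is highest in MCF10DCIS (15.6 TPM), and IGFBP5 stays at or under 0.0226 TPM.

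Each of the 3 receptor genes had a smaller range over the lines than each of the 5 evaluated binding-protein genes. IGF1R, the main receptor of IGF1, was at 11.6 TPM in MCF10A, at 17.4 in MCF10AT1, at 13.5 in MCF10DCIS and at 16.8 in MCF10CA1a. IGF2R was at 11.9, 19.1, 12.8 and 14.7 TPM in the same order. The 4 lines lay within 0.55 log2 units for IGF1R and within 0.63 for IGF2R, so that no pair of lines reached the rule of size for either gene. The order of the lines for these 2 genes depended on the scaling, and MCF10A was lowest for both under every scaling tried.

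INSR, the insulin receptor gene, was at 2.65 TPM in MCF10A, at 2.83 in MCF10AT1, at 1.13 in MCF10DCIS and at 4.08 in MCF10CA1a. MCF10DCIS was lowest and MCF10CA1a highest. Their difference of 1.25 exceeded the rule of size and was 0.95 above the median of all tested genes in that comparison. The differences from MCF10A were 0.07, -0.78 and 0.48, all under the rule. IGF1R exceeded INSR in every line, by a ratio of 4.39 for MCF10A, 6.15 for MCF10AT1, 12.0 for MCF10DCIS and 4.13 for MCF10CA1a. IGF2R and IGF1R stayed near the same level, at ratios between 0.872 and 1.09.

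IRS1 had the widest range among the receptor and substrate genes of the set. It was at 3.86 TPM in MCF10A, at 7.25 in MCF10AT1, at 0.382 in MCF10DCIS and at 1.34 in MCF10CA1a. MCF10AT1 was highest, MCF10A lay 0.77 below it, and both carcinoma-stage lines were lower than MCF10A. The differences from MCF10A were 0.77, -1.81 and -1.05, of which the last was -0.96 with quantile normalization and -0.97 with median-of-ratios scaling, under the rule of size. Between MCF10DCIS and MCF10AT1 the difference was -2.58, a ratio of 19.0 of MCF10AT1 over MCF10DCIS. IRS2, which encodes the other widely expressed substrate and was added after its values were seen, was at 5.40, 4.74, 7.17 and 3.29 TPM in MCF10A, MCF10AT1, MCF10DCIS and MCF10CA1a. IRS1 thus exceeded IRS2 only in MCF10AT1, and the ratio of IRS2 to IRS1 was 1.40 for MCF10A, 0.653 for MCF10AT1, 18.8 for MCF10DCIS and 2.46 for MCF10CA1a.

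**Figure D3:**
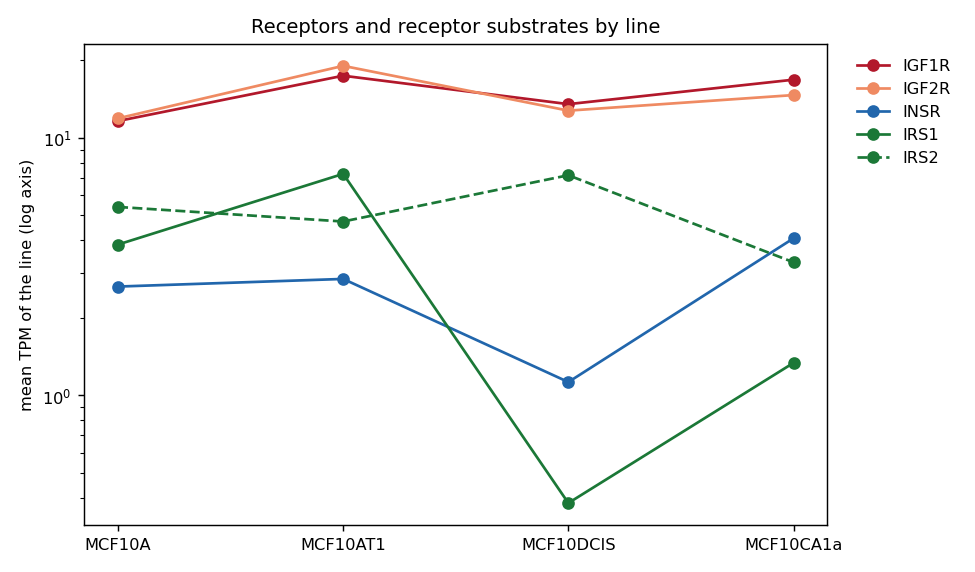
Points give the mean TPM of IGF1R, IGF2R, INSR, IRS1 and IRS2 in each line on a log axis, and lines join the values of 1 gene. IGF1R and IGF2R lie between 11.6 and 19.1 TPM in all lines, whereas IRS1 lies between 7.25 TPM in MCF10AT1 and 0.382 TPM in MCF10DCIS.

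The promoter windows of IRS1 and IGF1R are shown because the levels of the former varied most and those of the latter least among the receptor and substrate genes. They lie at chr2:226799821-226800070 on the minus strand for IRS1 and at chr15:98648289-98648538 on the plus strand for IGF1R (RefSeq, GRCh38.p14). Capitals again mark GC-box letters.
IRS1: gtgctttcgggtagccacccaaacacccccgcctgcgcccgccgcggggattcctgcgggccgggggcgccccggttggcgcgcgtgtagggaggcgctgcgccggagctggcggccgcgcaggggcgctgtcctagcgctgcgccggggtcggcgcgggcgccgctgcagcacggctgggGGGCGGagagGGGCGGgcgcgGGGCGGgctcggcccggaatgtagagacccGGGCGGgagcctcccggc
IGF1R: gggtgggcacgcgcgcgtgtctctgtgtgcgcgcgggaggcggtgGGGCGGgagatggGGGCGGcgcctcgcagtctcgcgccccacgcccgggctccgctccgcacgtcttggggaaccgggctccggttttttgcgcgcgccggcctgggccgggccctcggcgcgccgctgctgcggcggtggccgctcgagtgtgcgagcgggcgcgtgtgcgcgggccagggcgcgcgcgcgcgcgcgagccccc
Both windows are rich in G and C, at 80.8% for IRS1 and 81.2% for IGF1R, and hold 39 and 48 CpG pairs. The GC-box letters occur 4 times in IRS1 and 2 times in IGF1R. RefSeq windows were found for 9 of the 10 genes, and 8 of the 9 held the GC-box letters in at least 1 window. Those of a TATA box (TATAAA) were in 1 of the 9, IGFBP4, and in 10.7% of all windows, and those of a CCAAT box (CCAAT) in 1, IGFBP2, and in 32.0%. The CCAAT letters are in the window of the third IGFBP2 start, 26739 bases inside the gene, and not in the one shown, and IGFBP2 has 3 windows where the other genes have 1. All motifs were searched on both strands. The letters of an AP-1 site (TGANTCA) were in 0 of the 9 and in 6.57% of all windows, and those of a FOXO site (TGTTTAC) in 1 of the 9, IGFBP6, and in 2.98% of all windows. Of the 250 bases of the IGFBP6 window, 231 lie in exons annotated by GENCODE.

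In MCF10AT1 against MCF10A, 3 of the 9 evaluated members were higher and 1 was lower. Of all tested genes, 3.39% were higher and 5.87% lower. The higher members were IGFBP7 (5.28), IGFBP2 (2.11) and IGFBP4 (1.54), and the lower was IGFBP3 (-2.21). The receptors and IRS1 lay between 0.07 and 0.77. The median of the 9 was 0.63, beside -0.07 for all tested genes. With rescaled TPM the same numbers of members were higher and lower, beside 5.80% and 6.66% of all genes. A gene passes the filter of 1 TPM through its highest line, and IGFBP2, IGFBP7 and IRS1, each under 1 TPM in at least 1 line, entered that way.

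In MCF10DCIS against MCF10A, IGFBP2 was higher (3.61) and 3 members were lower, namely IGFBP3 (-3.71), IGFBP6 (-2.29) and IRS1 (-1.81). Of all tested genes, 3.56% were higher and 14.8% lower. With rescaled TPM, IGFBP4 (1.22) and IGFBP7 (1.06) were higher too, which made 3 higher and 3 lower beside 7.82% and 10.4% of all genes. The median of the 9 was 0.09, beside -0.38 for all tested genes.

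In MCF10CA1a against MCF10A, 1 member was higher and 1 lower, IGFBP2 (2.23) and IRS1 (-1.05). Of all tested genes, 5.97% were higher and 7.14% lower. With rescaled TPM the difference of IGFBP7 was -1.06, which made 1 higher and 2 lower beside 9.45% and 7.79% of all genes. The other members lay between -0.56 and 0.57 with deposited TPM. Among them IGFBP7 was at 0.0317 against 0.448 TPM, and its difference was -2.06 with a pseudocount of 0.1.

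**Figure D4:**
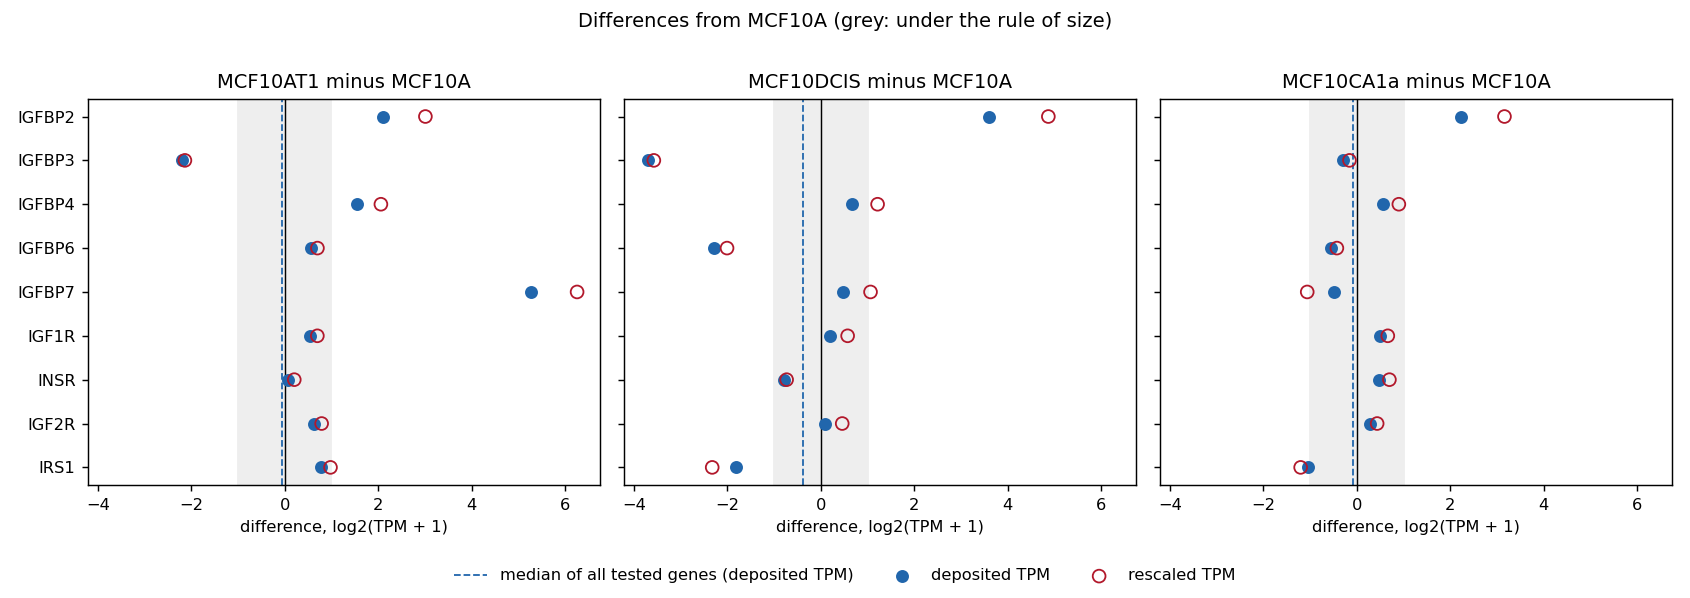
Points show the difference in log2(TPM + 1) of each derived line from MCF10A for the 9 evaluated genes, filled for deposited and open for rescaled TPM. Grey marks differences under 1, and the dashed line is the median of all tested genes; IGFBP2 is right of the grey band in all 3 panels, and IGFBP3 is left of it in MCF10AT1 and MCF10DCIS but not in MCF10CA1a (-0.30).

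The derived lines also differed from each other. MCF10DCIS was higher than MCF10AT1 in IGFBP2 (1.51) and lower in IGFBP7 (-4.80), IGFBP6 (-2.85), IRS1 (-2.58) and IGFBP3 (-1.51), which is 1 and 4 of 9 beside 3.23% and 7.51% of all tested genes (6.60% and 7.46% with rescaled TPM, where 1 and 4 were counted too). MCF10CA1a was higher than MCF10AT1 in IGFBP3 (1.91) and lower in IGFBP7 (-5.77), IRS1 (-1.82) and IGFBP6 (-1.13), which is 1 and 3 of 9 beside 6.00% and 3.97%. IGFBP4 was just under the rule there, at -0.98, and past it with rescaled TPM, at -1.16, which made 1 and 4 beside 8.34% and 5.45%. MCF10CA1a was higher than MCF10DCIS in IGFBP3 (3.41), IGFBP6 (1.72) and INSR (1.25) and lower in IGFBP2 (-1.39), which is 3 and 1 of 9 beside 6.03% and 1.35%. Rescaled TPM added IRS1 (1.12) to the higher and IGFBP7 (-2.13) to the lower, which made 4 and 2 beside 6.01% and 2.88%. Thus IGFBP3, IGFBP6 and IGFBP2, which set MCF10DCIS apart from MCF10A, all lay closer to the MCF10A level in MCF10CA1a. Over all 4 lines, the range was at least 1 log2 unit for 7 of the 9 members and at least 2 for 5 of them, beside 30.8% and 6.17% of all tested genes. Of the 5, IGFBP2, IGFBP7 and IRS1 were under 1 TPM in at least 1 line and passed the filter through their higher lines, which favours a wide range. The members were also chosen with earlier results known, so these shares are descriptive only.

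The genes around each member were read for the same comparisons. On the rescaled scale, the 8 tested genes within 1 Mb of IGFBP7 (chromosome 4, 57030773 to 57110385, minus strand) had a median difference of 0.17 between MCF10AT1 and MCF10A, and none was past the rule of size. NOA1, the nearest, differed by 0.14. IGFBP3 (chromosome 7, 45912245 to 45921874, minus strand) is next to IGFBP1. For its 3 tested neighbours the medians were -0.38 (MCF10AT1), -0.50 (MCF10DCIS) and -0.26 (MCF10CA1a), and for the 626 tested genes of chromosome 7 they were -0.46, -0.66 and -0.51. IGFBP3 itself differed by -2.14, -3.58 and -0.16 on that scale. The 6 tested neighbours of IGFBP2 had medians between -0.27 and -0.03. Of the 6, 2 were lower in MCF10DCIS and in MCF10CA1a, beside 10.4% and 7.79% of all genes. IGFBP4 (chromosome 17, 40443461 to 40457731, plus strand) had 32 tested neighbours with a median of 0.14 in MCF10AT1. Of these, 6 were higher and 1 lower, beside 5.80% and 6.66% of all genes. AC018629.1, the nearest to its right, differed by 1.31 there, beside 2.06 for IGFBP4. In MCF10DCIS, 5 of the 32 were higher and 1 lower, beside 7.82% and 10.4%. In MCF10CA1a, 7 were higher and 1 lower, beside 9.45% and 7.79%. IGFBP6 (chromosome 12, 53097436 to 53102345, plus strand) had 40 tested neighbours with a median of -0.20 in MCF10DCIS, where IGFBP6 differed by -2.01. Of the 40, 3 were higher and 3 lower there. In MCF10AT1, 8 of the 40 were lower and 3 higher, beside 6.66% and 5.80% of all genes. In MCF10CA1a, 13 were lower and 2 higher, beside 7.79% and 9.45%. The 3 tested neighbours of IRS1 (chromosome 2, 226731317 to 226799759, minus strand) had a median of 0.15 in MCF10DCIS, where IRS1 differed by -2.33. The remaining genes are IGF1R (chromosome 15, 98648539 to 98964530, plus strand), INSR (chromosome 19, 7112255 to 7294034, minus strand) and IGF2R (chromosome 6, 159969099 to 160113507, plus strand). In MCF10AT1, MCF10DCIS and MCF10CA1a, the 5 tested neighbours of IGF1R had medians of 0.25, -0.04 and -0.33, and the 7 of IGF2R 0.22, -0.04 and 0.32. The 36 tested neighbours of INSR had medians of -0.04, -0.20 and -0.10. Of the 36, 9, 4 and 6 were lower, beside 6.66%, 10.4% and 7.79% of all genes. In each line 1 was higher, beside 5.80%, 7.82% and 9.45%. All 10 members are annotated as protein-coding.

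The rest of the pathway was followed in a list of 62 genes, of which 52 reached 1 TPM. The ligand genes were hardly measured: INS was listed at 0 in all lines, IGF1 reached 0.00055 TPM in MCF10CA1a only, and IGF2 did not exceed 0.0221 TPM. IGFBP1, IGFBPL1 and IGFALS, the last encoding a partner of IGF complexes in serum, did not exceed 0.0170, 0.00217 and 0.0140 TPM. Of the 52 genes, 6 were higher (11.5%) and 1 lower (1.92%) in MCF10AT1 than in MCF10A, beside 3.39% and 5.87% of all tested genes. In MCF10DCIS, 5 were higher (9.62%) and 9 lower (17.3%), beside 3.56% and 14.8%. In MCF10CA1a, 5 were higher and 5 lower (9.62% each), beside 5.97% and 7.14%. Their medians of -0.12, -0.35 and -0.05 stood beside -0.07, -0.38 and -0.07 for all tested genes. Rescaled TPM gave 7 higher and 2 lower in MCF10AT1 (13.5% and 3.85%, beside 5.80% and 6.66% of all genes), 9 and 7 in MCF10DCIS (17.3% and 13.5%, beside 7.82% and 10.4%) and 9 and 6 in MCF10CA1a (17.3% and 11.5%, beside 9.45% and 7.79%). The share of lower genes in MCF10DCIS and MCF10CA1a was near that of all genes.

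Among genes acting on the binding proteins, HTRA1, a secreted protease that cleaves IGF-binding proteins, was higher than MCF10A in each derived line. It was at 2.81 TPM in MCF10A, at 42.8 in MCF10AT1, at 8.55 in MCF10DCIS and at 6.65 in MCF10CA1a, with differences of 3.52, 1.33 and 1.01. STC1 and STC2 encode stanniocalcins, which inhibit the protease PAPPA. STC1 was lower in MCF10DCIS (-1.77) and MCF10CA1a (-1.75), and STC2 was higher in MCF10AT1 (1.34) and MCF10CA1a (1.01). The group thus held genes of both directions.

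Of 9 measured substrates and adaptors, GRB10, an adaptor that restrains insulin and IGF receptors, was higher in all 3 derived lines. It was at 0.550 TPM in MCF10A, at 7.23 in MCF10AT1, at 4.17 in MCF10DCIS and at 6.23 in MCF10CA1a. The adaptor SHC1, which links receptors to RAS, was higher in MCF10AT1 (1.25) and MCF10DCIS (1.53), with 0.74 in MCF10CA1a. GAB1, another docking protein, was lower in MCF10DCIS (-1.46). Of 11 genes for PI3K, AKT and lipid phosphatases, 0 were higher in any derived line with deposited TPM, and 0, 2 and 3 were lower in MCF10AT1, MCF10DCIS and MCF10CA1a. PIK3R1, the main regulatory subunit of PI3K, was at 12.2 TPM in MCF10A, at 16.7 in MCF10AT1, at 3.13 in MCF10DCIS and at 1.56 in MCF10CA1a. PDPK1, which activates AKT, differed by -1.32 in MCF10DCIS (-0.88 with quantile normalization and -0.91 with median-of-ratios scaling) and by -1.11 in MCF10CA1a, and PIK3R3 by -1.19 in MCF10CA1a.

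Downstream, FOXO1, a transcription factor that AKT holds out of the nucleus, had its highest level in MCF10AT1 and its lowest in MCF10DCIS, as did IRS1. FOXO1 was at 3.13 TPM in MCF10A, at 10.2 in MCF10AT1, at 0.912 in MCF10DCIS and at 2.87 in MCF10CA1a, with differences of 1.44, -1.11 and -0.09. The difference in MCF10DCIS was -0.80 with quantile normalization and -0.84 with median-of-ratios scaling. Of 9 genes of the TSC-MTOR branch, the MTOR activator RHEB was lower in MCF10DCIS (-1.21, but between -0.86 and -0.76 under the 3 other scalings). The MTOR inhibitor DEPTOR was higher in MCF10DCIS (1.15). It was at 0.280 TPM in MCF10A, at 0.227 in MCF10AT1, at 1.84 in MCF10DCIS and at 0.708 in MCF10CA1a. DEPTOR thus passed the filter of 1 TPM only through the line where it was higher, and its levels rest on an unknown number of reads. Among 9 negative regulators, SOCS3 was higher in MCF10AT1 (1.64) and MCF10CA1a (1.36), and DOK1 was higher in MCF10DCIS (1.46). SOCS3 was at 0.923 TPM in MCF10A. The SOCS genes did not share 1 direction. SOCS1, named with SOCS2 after their values were seen, was lower in MCF10DCIS (-1.44), at 0.239 TPM against 2.36 in MCF10A. SOCS2 was higher in MCF10CA1a (1.05). SOCS3 differed by 0.91 in MCF10DCIS, but by 1.21 to 1.55 under the 3 other scalings. DOK1 differed by 0.98 in MCF10CA1a, but by 1.00 to 1.37 under those scalings. The AKT phosphatase gene PHLPP2 was lower in all 3 derived lines (-1.02, -1.51 and -1.56). The first of these values was under the rule of size with quantile normalization (-0.89) and with median-of-ratios scaling (-0.94). IGF2BP3 encodes a binder of IGF2 mRNA, not of the protein, and differed by -1.05 in MCF10DCIS, but by -0.75 to -0.61 under the 3 other scalings. Its relative IGF2BP2, named after its values were seen, differed by 0.82 in MCF10DCIS and 0.97 in MCF10CA1a, and was past the rule of size with rescaled TPM, at 1.21 and 1.13.

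**Figure D5:**
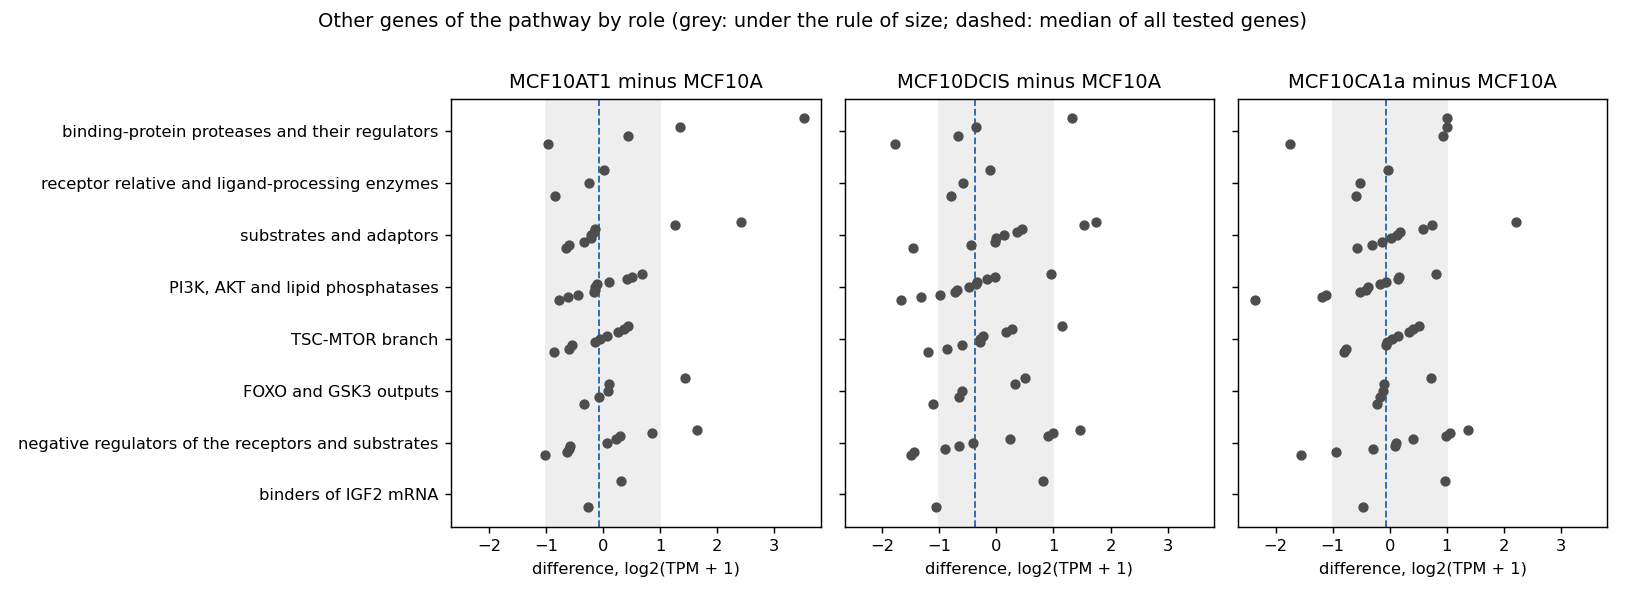
Each point is 1 of the 52 measured genes of the pathway list, placed by its difference in log2(TPM + 1) from MCF10A and grouped by role, with grey for differences under 1 and a dashed line for the median of all tested genes. Most points lie in the grey band; the point farthest right is HTRA1 in MCF10AT1 (3.52) and the one farthest left is PIK3R1 in MCF10CA1a (-2.37).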

How the data were processed

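The authors deposited 1 table of TPM, with a column per line that its header calls a mean, from 12 libraries in all. STAR, edgeR and the build hg38 are named, per the submitters' processing notes. Not given in the sources used here are versions, annotation, the quantification step and its strand setting. Depth and spread between libraries are unknown, so no interval, detection limit or p-value is given.

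Differences in log2(TPM + 1) were computed over genes with at least 1 TPM in at least 1 line, and a difference of 1 served as the rule of size (Python 3.11.15, pandas 2.3.3). All 6 pairs of lines were compared. The calculation was tested on simulated data. The members and lists were chosen with earlier results of these data known. The text names all members, the ligand and remaining binding-protein genes, and up to 3 pathway genes per role with the largest difference past the rule of size. For members with at least 10 TPM and a range of 2 log2 units, it also names the 3 genes most alike. IRS2, IGF2BP2, SOCS1 and SOCS2 were added after their values were seen. Alternatives were rescaled TPM, median-of-ratios scaling, quantile normalization, no filter, a 5 TPM filter and a pseudocount of 0.1. Positions are from GENCODE release 29 on GRCh38; promoter windows are from RefSeq.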

Additional observations from a re-analysis of the deposited data

How the results depend on the processing

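Of 54 member differences, 23 were past the rule of size, and 22 of these stayed past it in the same direction under all 6 alternatives that gave a value. The exception was IRS1 in MCF10CA1a against MCF10A. No counted difference changed sign. Among differences under the rule, those of IGF1R and IGF2R between MCF10CA1a and MCF10DCIS (0.30 and 0.19) changed sign: IGF1R became -0.03 with quantile normalization and -0.06 with median-of-ratios scaling, and IGF2R -0.14, -0.17 and, with rescaled TPM, -0.02. IGF1R between MCF10DCIS and MCF10AT1 (-0.34) became 0.01 with median-of-ratios scaling.

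Counts of members that moved by more than 1.5 times were these. In MCF10DCIS against MCF10A, 3 were higher with a pseudocount of 0.1 and with rescaled TPM, against 1. In MCF10CA1a against MCF10A, 2 were lower with those settings and 0 with quantile normalization or median-of-ratios scaling, against 1. In MCF10CA1a against MCF10DCIS, 2 were lower with a pseudocount of 0.1 and all 3 scalings, against 1. Smaller moves included 6 lower against 4 in MCF10DCIS against MCF10AT1 and 4 lower against 3 in MCF10DCIS against MCF10A and in MCF10CA1a against MCF10AT1, all with a pseudocount of 0.1, and 2 higher against 3 in MCF10AT1 against MCF10A with the filter of 5 TPM. For the pathway list, lower genes in MCF10AT1 were 3 with a pseudocount of 0.1, 2 with rescaled TPM and 0 with quantile normalization or median-of-ratios scaling, against 1. Higher genes in MCF10DCIS were 8 with a pseudocount of 0.1 and 9 with each of the 3 scalings, against 5, and lower genes 5 with quantile normalization or median-of-ratios scaling, against 9. Higher genes in MCF10CA1a were 8 with a pseudocount of 0.1 and 9 with rescaled TPM, against 5. Of 29 differences past the rule among the named pathway genes, without those added after their values were seen, 5 fell under it in at least 1 alternative: PHLPP2 in MCF10AT1 and PDPK1, RHEB, FOXO1 and IGF2BP3 in MCF10DCIS. The causes were not tested. No paired analysis was possible because the table holds 1 mean per line, and leaving out a library could not be run for the same reason. The unknown depth limits the levels under 1 TPM most.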

Other observations

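The place of the members among the 13108 tested genes also differed by line. IGFBP3 stood at percentile 91.3 of levels in MCF10A and percentile 36.9 in MCF10DCIS, and IGFBP2 at percentile 3.37 in MCF10A and percentile 75.3 in MCF10DCIS. IGF1R stayed between percentiles 59.8 and 73.0 in all lines. IRS1 lay at percentile 48.7 in MCF10AT1 and percentile 4.49 in MCF10DCIS. The 6 binding-protein genes summed to 9.27 times the IGF1R level in MCF10A, 8.40 times in MCF10AT1, 2.31 times in MCF10DCIS and 5.15 times in MCF10CA1a.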
